A study of Homo sapiens with 4 samples.

Results

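Chemokines are small secreted proteins that attract leukocytes and also act on tumour cells, fibroblasts and vessels. The 9 genes described here are CXCL1, CXCL2, CXCL3, CXCL5, CXCL6, CXCL8, CXCL16, CCL2 and CCL20, taken by gene symbol from a table of 17791 genes. All 9 had a row, and 8 of them were among the 14851 genes with at least 1 CPM (counts per 1000000 counts of a library) in 1 or more libraries. That filter used CPM before scaling, and all CPM given below are after scaling. CCL20 stayed under 1 CPM in every library and was not tested. The members were read from RNA sequencing of engineered prostate cancer tissues (EPCaTs), which grow in a gel, and of the same cells grown flat (2D).

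PC-3 cells were derived from a bone metastasis of prostate cancer, and BJ-5ta cells are telomerase-immortalised fibroblasts from foreskin. The PF EPCaT held both lines in PF, a gel of fibrinogen joined to polyethylene glycol, without added crosslinker. The EPCaTs called PF+2%PEGDA and PF+3%PEGDA held the same cells with polyethylene glycol diacrylate (PEGDA), a crosslinker used to tune stiffness, at 2% or 3% by weight and volume. Each EPCaT was seeded at 5 PC-3 to 1 BJ-5ta cells and taken on day 15, after culture in PC-3 medium. The 2D coculture held PC-3 and BJ-5ta cells without a gel, at a cell ratio, in a medium and on a day that the labels do not give. No group was treated with an agent. Per the series' design text, RNA for an EPCaT library was isolated from more than 2 tissues. Each of the 4 groups has 1 library, which leaves no replicates and no p-value, and every interval below covers counting error only.

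The members CXCL1, CXCL2, CXCL3, CXCL5, CXCL6 and CXCL8 form the ELR class of CXC chemokines, named for a short motif near the start of the mature protein. They act on the receptor CXCR2, CXCL6 and CXCL8 also on CXCR1, and are known for attracting neutrophils and for promoting vessel growth. CXCL16 is a membrane-bound ligand of CXCR6 that proteases release from the surface, CCL2 attracts monocytes through CCR2, and CCL20 attracts cells that carry CCR6. Many chemokine genes are switched on by inflammatory cytokines through the transcription factor NF-kB, and their mRNAs are often short-lived because of AU-rich elements in the 3′ UTR.

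The ELR members lie in 1 cluster on chromosome 4 (GRCh38, GENCODE release 29), and all 9 members are annotated as protein-coding. CXCL8 lies at chr4:73740506-73743716, CXCL6 at chr4:73836497-73849064 and CXCL1 at chr4:73869393-73871242, all on the plus strand. CXCL5 at chr4:73995642-73998779, CXCL3 at chr4:74036589-74038807 and CXCL2 at chr4:74097035-74099293 lie on the minus strand. CXCL16 (chr17:4733526-4739922, minus strand) and CCL2 (chr17:34255218-34257203, plus strand) lie on chromosome 17, and CCL20 (chr2:227805739-227817564, plus strand) lies on chromosome 2.

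The promoter windows below are shown because NF-kB is the factor best known for inducing these genes, and because members that share a site differed in level. Each is 30 bases of the RefSeq promoter (GRCh38.p14), 5′ to 3′ on the gene's strand, with the match in capitals. Promoters were at hand for 7 members, with CXCL16 and CCL2 named only.
CXCL1: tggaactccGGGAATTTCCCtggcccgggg
CXCL2: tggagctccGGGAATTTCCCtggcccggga
CXCL3: tggagctccGGGAATTTCCCtggcccggcc
CXCL5: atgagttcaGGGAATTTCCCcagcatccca
CXCL6: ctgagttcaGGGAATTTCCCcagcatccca
CXCL8: gcaaatcgtGGAATTTCCtctgacataatg
CCL20: gatcaatggGGAAAACCCCatgtggcaaca

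These windows lie at chr4:73869305-73869334 for CXCL1, chr4:74099253-74099282 for CXCL2 and chr4:74038748-74038777 for CXCL3. They lie at chr4:73998748-73998777 for CXCL5, chr4:73836579-73836608 for CXCL6, chr4:73740469-73740498 for CXCL8 and chr2:227813754-227813783 for CCL20. All lay upstream of the RefSeq start, between 100 and 58 bases before it, and those of CXCL2, CXCL3, CXCL5 and CXCL6 lie within exons of other GENCODE transcripts. The letters GGGAATTTCCC occurred in 5 members and in 16 of 11452 promoters of tested genes (0.14%), those 5 members among the 16. The string was taken from the members' own windows, so its rarity is no test. The search covered 250 bases before the start on both strands, with overlapping matches counted. Further shares of promoters refer to the same 11452, which leave out CCL20. CXCL8 holds the shorter form GGAATTTCC, which 6 members and 0.419% of promoters hold and which lies inside GGGAATTTCCC. The NF-kB consensus occurred in 6 of the 7 promoters and in 5.88% of all, and the CXCL8 window was the one without a match to it. The letters TGANTCA, an AP-1 motif, occurred in 1 member, CXCL8, and in 4.16% of all promoters. The letters TATAAA occurred in 2 members, CXCL8 and CCL20, and in 5.71% of all. A match is a description of letters and not evidence that a factor was bound.

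Sites with ATTTA, the core of AU-rich elements, are shown for the 4 ELR members whose 3′ UTRs held them most densely. Each window is 30 bases of the longest annotated 3′ UTR on GRCh38, with ATTTA in capitals.
CXCL1: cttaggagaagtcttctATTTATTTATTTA
CXCL2: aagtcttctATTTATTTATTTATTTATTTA
CXCL3: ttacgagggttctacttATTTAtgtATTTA
CXCL8: taacctATTTAttATTTAtgtATTTATTTA

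They lie at chr4:73870665-73870694 for CXCL1, chr4:74097590-74097619 for CXCL2, chr4:74037090-74037119 for CXCL3 and chr4:73743108-73743137 for CXCL8. The 3′ UTR of CXCL2 held 10 such pentamers, or 13.9 per 1000 bases, and 0.321% of 13102 genes were as dense or denser. CXCL3 held 7 (10.4 per 1000 bases), CXCL8 held 9 (7.19 per 1000 bases) and CXCL1 held 5 (7.08 per 1000 bases). CXCL5 with 5.51, CXCL6 with 5.36 and CCL20 with 6.24 pentamers per 1000 bases also lay above the median of 1.67 over those genes. CXCL16 and CCL2 held 1 pentamer each, at 1.02 and 2.11 per 1000 bases, and 62.4% and 41.8% of genes were as dense or denser.

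The libraries held 13760301 to 15687894 counts, so that 1 count was worth 0.0600 to 0.0734 CPM. A gene is called higher or lower when it differed at least 2-fold between libraries and the exact 95% interval of its ratio excluded equality. The PF library stood apart in ribosomal protein genes, which are short and abundant. Where 12.0% of all tested genes were lower in PF than in 2D, 53 of 79 ribosomal protein genes were, with a median log2 ratio of -1.27. The median log2 ratios of these genes were 0.93 for PF+2%PEGDA over PF and 0.93 for PF+3%PEGDA over PF. Both cell lines left their markers in every library. The summed level of 20 fibroblast markers was 3054, 3371 and 2813 CPM in the EPCaTs with PF, 2% and 3% PEGDA, against 9682 CPM in 2D. POSTN was at 0 counts in both gels with PEGDA, with 2 counts in PF and 15 in 2D, and the other 19 were above 0 in every library. That of 16 epithelial markers was 6251, 7059 and 6640 CPM in the same EPCaTs, against 4500 CPM in 2D, and 5 or 6 of them were higher in each EPCaT with 0 lower. Over all tested genes, 16.5%, 12.4% and 12.1% were higher and 12.0%, 9.45% and 10.4% lower in the EPCaTs with PF, 2% and 3% PEGDA. Of 14 leukocyte markers 4 had a row and 10 had none, among them PTPRC. The 4 summed to 57.2, 58.0 and 69.3 CPM in the EPCaTs, against 120 CPM in 2D, and CD68, which other cells also express, made up most of each sum. Of the 50-base stretches of CD68, 74.3% occur in other genes, so its counts are uncertain. Of 8 listed endothelial markers 7 had a row and 3 were tested, which were PECAM1, KDR and ESAM. All 3 were higher in each EPCaT, beside the same shares over all tested genes. The list summed to 257, 304.5 and 358 CPM in the EPCaTs, against 38.2 CPM in 2D. These 3 genes made up most of each sum, and the rest with a row had 6 counts or fewer in every library.

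In the EPCaTs CXCL8 and CXCL16 were the most abundant members per length of exon, and in the 2D coculture CXCL8 and CXCL1 were. Per 1000 bases of exon, CXCL8 had 10.0 CPM in PF, with 22.2 and 27.0 CPM at 2% and 3% PEGDA and 28.9 CPM in 2D. On the same scale CXCL16 had 14.0, 14.8 and 15.2 CPM in the 3 EPCaTs, against 9.90 CPM in 2D. CXCL1 had 3.38, 3.08 and 3.23 CPM per 1000 bases in the EPCaTs, against 19.3 in 2D, where its level was second to that of CXCL8. The lowest level per 1000 bases was that of CCL20 in all 4 libraries, at 0.263, 0.121 and 0.184 CPM in the EPCaTs, against 0.0427 CPM in 2D. Among the rest, the 5 genes CXCL2, CXCL3, CXCL5, CXCL6 and CCL2 had between 0.541 and 3.48 CPM per 1000 bases in the EPCaTs and between 1.61 and 6.04 in 2D.

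**Figure D1:**
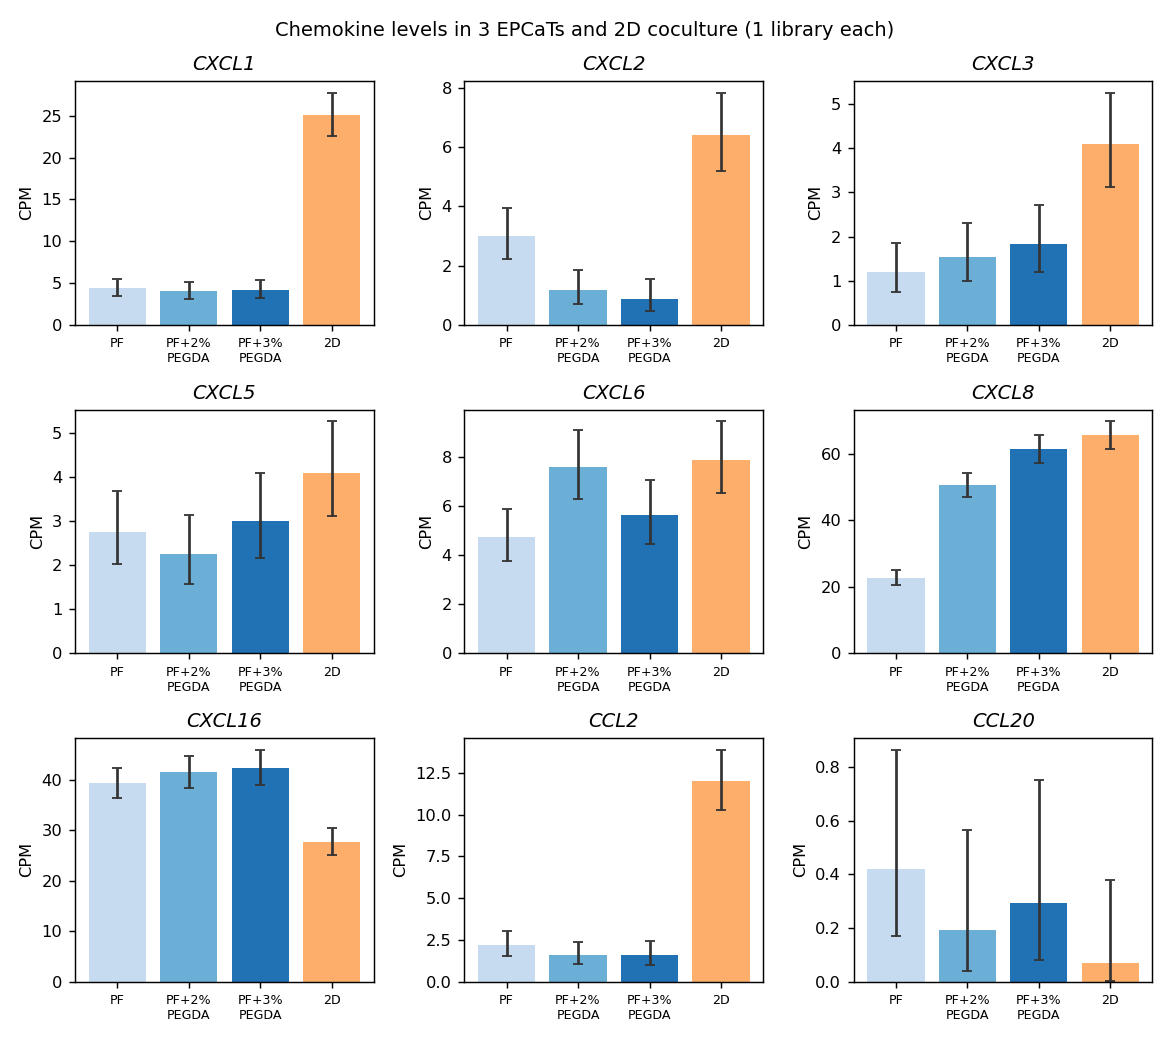
Level of each chemokine in CPM (y axes, each with its own range) in the EPCaTs (PF, then 2% and 3% PEGDA) and in the 2D coculture (x axes), as bars of 1 library each with exact 95% Poisson intervals for counting error. CXCL1 stands at about 4 CPM in the EPCaTs, against 25.1 CPM in 2D, while CXCL8 stands at 22.8 CPM in PF and between 50.5 and 65.6 CPM in the other libraries.

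The comparison of EPCaTs with 2D sets chemokine expression in the gels beside that in flat culture. It cannot tell the gel apart from any difference in cell ratio, day or medium. In the PF EPCaT 5 of the 8 tested members were lower than in 2D (CXCL1, CXCL2, CXCL3, CXCL8 and CCL2) and 0 were higher. Of all tested genes, 12.0% were lower and 16.5% higher in that comparison. The call of CXCL2 in PF was lost under scaling by total counts and with the trend on exon length and GC content removed, which left 4 members lower under each. In PF+2%PEGDA 4 were lower (CXCL1, CXCL2, CXCL3 and CCL2) and 0 higher, where 9.45% of all tested genes were lower and 12.4% higher. In PF+3%PEGDA the same 4 members were lower and 0 higher, where 10.4% of all tested genes were lower and 12.1% higher. The median log2 ratio of the 8 members was -1.30 in PF, -1.12 in PF+2%PEGDA and -0.81 in PF+3%PEGDA, beside medians of 0.02, 0.01 and 0.00 over all tested genes. The 3 comparisons share the single 2D library, so they are not independent of each other.

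CXCL1, a neutrophil attractant also known as a melanoma growth factor, had 73 counts (4.38 CPM) in the PF EPCaT, 62 (3.99 CPM) in PF+2%PEGDA, 57 (4.18 CPM) in PF+3%PEGDA and 368 (25.1 CPM) in 2D. The EPCaTs lay close together and well below 2D. CXCL1 was 5.69-fold lower in PF (95% interval 4.44 to 7.46), 6.23-fold lower in PF+2%PEGDA (4.79 to 8.35) and 5.95-fold lower in PF+3%PEGDA (4.53 to 8.07).

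CCL2, the main attractant of monocytes, had 37 counts (2.22 CPM) in the PF EPCaT, 25 (1.61 CPM) in PF+2%PEGDA, 22 (1.61 CPM) in PF+3%PEGDA and 176 (12.0 CPM) in 2D. Its pattern was the one nearest to that of CXCL1 among the tested members, with a distance of 0.317 between their log2 levels after each was centred on its mean over the 4 libraries. CCL2 was 5.34-fold lower in PF (3.77 to 7.92), 7.31-fold lower in PF+2%PEGDA (4.88 to 11.8) and 7.29-fold lower in PF+3%PEGDA (4.75 to 12.2) than in 2D.

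Most fibroblast markers were also lower in the EPCaTs, but not all. Over all tested genes, 12.0%, 9.45% and 10.4% were lower and 16.5%, 12.4% and 12.1% higher in the EPCaTs with PF, 2% and 3% PEGDA. Of 19 tested fibroblast markers, 14 were lower in PF, 13 in PF+2%PEGDA and 13 in PF+3%PEGDA than in 2D, and 1 was higher in each. The higher one in PF was COL5A2, with 513 CPM, against 230 CPM in 2D. In PF+2%PEGDA and PF+3%PEGDA it was S100A4, with 98.5 and 98.6 CPM, against 39.7 CPM in 2D. PDGFRA and TWIST1 were not called in any EPCaT. COL1A2, a chain of type I collagen, had 122, 105 and 49.6 CPM in the EPCaTs with PF, 2% and 3% PEGDA, against 871 CPM in 2D. CTNNA1, the gene of alpha-catenin that PC-3 cells are known to lack, was 6.10-fold lower in PF (4.89 to 7.77), 5.33-fold lower in PF+2%PEGDA (4.29 to 6.74) and 3.98-fold lower in PF+3%PEGDA (3.25 to 4.95). Their part in the lower chemokine levels was not tested. In these bulk libraries, fewer cells of a type and less RNA per cell cannot be told apart.

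The 5 genes most like CCL2 over the 4 libraries, among 11722 ranked, were AEBP1, COL5A1, PAPPA, SHISA3 and FBLN2, at distances of 0.258 to 0.308. AEBP1 and COL5A1 encode proteins of the collagen matrix, and FBLN2 encodes a fibulin. COL5A1 had 31.1, 26.6 and 20.5 CPM in the EPCaTs with PF, 2% and 3% PEGDA, against 162 CPM in 2D. With 4 points for each gene this likeness is a description only.

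CXCL2 and CXCL3, close relatives of CXCL1, were less abundant. CXCL2 had 50 counts (3.00 CPM) in the PF EPCaT, 18 (1.16 CPM) in PF+2%PEGDA, 12 (0.881 CPM) in PF+3%PEGDA and 94 (6.40 CPM) in 2D. It was 2.12-fold lower in PF (1.50 to 3.07), 5.40-fold lower in PF+2%PEGDA (3.31 to 9.72) and 7.03-fold lower in PF+3%PEGDA (3.97 to 14.6) than in 2D. In PF its log2 ratio to 2D was -1.09, against -0.91 with scaling by total counts and -0.69 with the trend on exon length and GC content removed, both under 2-fold. The PF value lay between those of the gels with PEGDA and of 2D.

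CXCL3 had 20 counts (1.20 CPM) in the PF EPCaT, 24 (1.55 CPM) in PF+2%PEGDA, 25 (1.83 CPM) in PF+3%PEGDA and 60 (4.09 CPM) in 2D. It was 3.35-fold lower in PF (2.03 to 5.97), 2.61-fold lower in PF+2%PEGDA (1.62 to 4.44) and 2.21-fold lower in PF+3%PEGDA (1.38 to 3.71) than in 2D. CXCL1, CXCL2 and CXCL3 are near-identical in parts: 4.81%, 12.5% and 6.01% of their 50-base stretches occur in another gene, so the authors' counting may have split reads between them. Summed, the 3 genes had 143 counts (8.58 CPM) in PF, 104 (6.70 CPM) in PF+2%PEGDA, 94 (6.90 CPM) in PF+3%PEGDA and 522 (35.6 CPM) in 2D. The sum was 4.13-fold lower in PF (3.44 to 5.02), 5.29-fold lower in PF+2%PEGDA (4.29 to 6.62) and 5.14-fold lower in PF+3%PEGDA (4.13 to 6.49).

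CXCL5 and CXCL6, a second pair of close relatives, were not called in any comparison. CXCL5 had 46 counts (2.76 CPM) in PF, 35 (2.26 CPM) in PF+2%PEGDA, 41 (3.01 CPM) in PF+3%PEGDA and 60 (4.09 CPM) in 2D. Its ratio to 2D was 0.675 in PF (0.450 to 1.01), 0.552 in PF+2%PEGDA (0.353 to 0.851) and 0.736 in PF+3%PEGDA (0.482 to 1.11). CXCL6 had 79 counts (4.74 CPM) in PF, 118 (7.60 CPM) in PF+2%PEGDA, 77 (5.65 CPM) in PF+3%PEGDA and 116 (7.90 CPM) in 2D.

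The CXCL6 ratio to 2D was 0.600 in PF (0.445 to 0.805), 0.962 in PF+2%PEGDA (0.738 to 1.25) and 0.715 in PF+3%PEGDA (0.529 to 0.962). CXCL5 and CXCL6 carry the same 11-letter site as CXCL1, CXCL2 and CXCL3 in the windows above. None of their ratios to 2D reached 2-fold, but the intervals of CXCL5 in each EPCaT and of CXCL6 in PF included it. The part of the site in these levels was not tested.

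CXCL8, or interleukin 8, the most potent neutrophil attractant of the class, had 380 counts (22.8 CPM) in the PF EPCaT, 784 (50.5 CPM) in PF+2%PEGDA, 836 (61.3 CPM) in PF+3%PEGDA and 963 (65.6 CPM) in 2D. The PF library was low and the 2 gels with PEGDA lay near 2D. CXCL8 was 2.88-fold lower in PF than in 2D (2.55 to 3.25), while its ratio to 2D was 0.770 in PF+2%PEGDA (0.700 to 0.847) and 0.935 in PF+3%PEGDA (0.851 to 1.03).

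**Figure D2:**
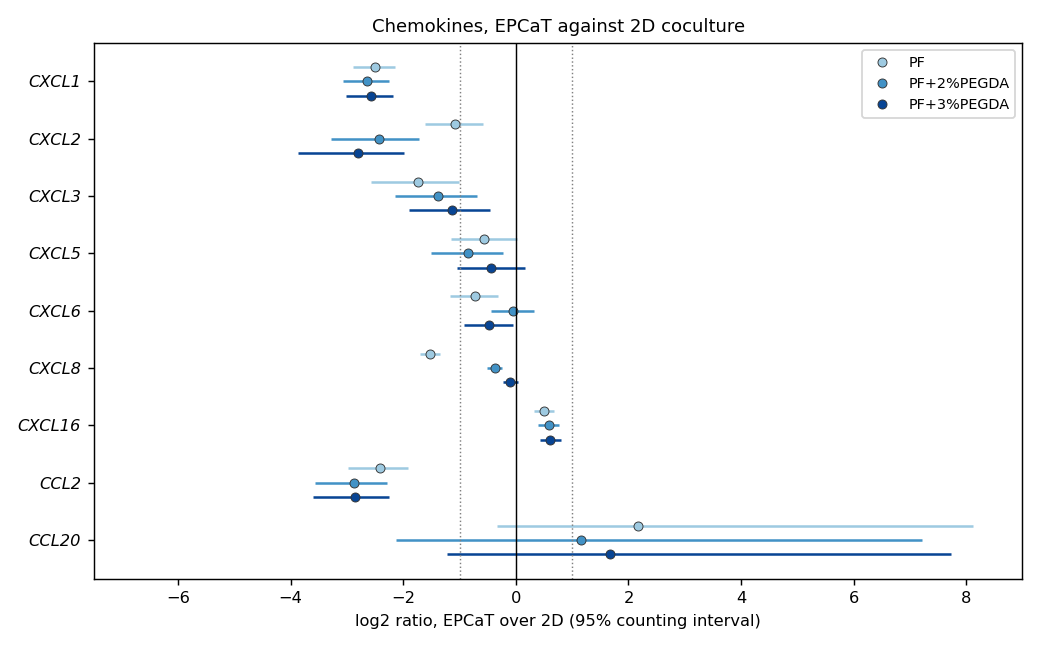
log2 ratio of each chemokine in an EPCaT over 2D (x axis) for PF, then 2% and 3% PEGDA (light to dark blue), with exact 95% intervals for counting error and dotted lines at 2-fold. CXCL1, CXCL2, CXCL3 and CCL2 lie beyond the left dotted line in each EPCaT, CXCL8 does so in PF alone, and CXCL16 lies right of 0 but within 2-fold.

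CXCL16, whose soluble form attracts cells with CXCR6, was the tested member whose level was higher in the EPCaTs, though it was not called. It had 654 counts (39.2 CPM) in PF, 643 (41.4 CPM) in PF+2%PEGDA, 577 (42.3 CPM) in PF+3%PEGDA and 406 (27.7 CPM) in 2D. The ratio to 2D was 1.42 in PF (1.25 to 1.61), 1.50 in PF+2%PEGDA (1.32 to 1.70) and 1.53 in PF+3%PEGDA (1.35 to 1.74), so the intervals excluded both equality and 2-fold. CCL20 had 7 counts in PF, then 3 and 4 at 2% and 3% PEGDA, and 1 in 2D. Its ratio of PF to 2D was 6.16 with an interval of 0.792 to 278, so no difference was detectable at this depth.

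The comparison between gels asks how the added PEGDA goes with expression. For PF+2%PEGDA against PF, 1 member of 8 was higher (CXCL8) and 1 was lower (CXCL2), where 2.98% of all tested genes were higher and 5.56% lower. For PF+3%PEGDA against PF the same 2 members were called, where 3.63% of all tested genes were higher and 7.51% lower. Between PF+3%PEGDA and PF+2%PEGDA 0 members were higher and 0 lower, where 1.85% of all tested genes were higher and 2.41% lower. The median log2 ratios of the 8 members in these pairs were -0.03, 0.12 and 0.05. Any 2 of these pairs share a library.

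CXCL8 was 2.21-fold higher in PF+2%PEGDA than in PF (1.96 to 2.51) and 2.69-fold higher in PF+3%PEGDA than in PF (2.38 to 3.05). The ratio of PF+3%PEGDA to PF+2%PEGDA was 1.21 (1.10 to 1.34). Over genes with a known exon length, ratios to PF went with that length. The 20% with the shortest summed exons had a median log2 ratio of 0.24 for PF+2%PEGDA over PF and 0.21 for PF+3%PEGDA over PF. The 20% with the longest had -0.17 in both. CXCL8 has 2274 bases of summed exons and 33.4% GC in its longest transcript, and was not placed in either class. With the trend on exon length and GC content taken out, the log2 ratio of CXCL8 was 0.87 for PF+2%PEGDA over PF, which is no longer 2-fold, and 1.09 for PF+3%PEGDA over PF, which still is. The part of that trend in the CXCL8 difference was not tested further.

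The 5 genes most like CXCL8 over the 4 libraries, among 11722 ranked, were TPT1, RPS19, RPS7, IL32 and JAZF1, at distances of 0.0973 to 0.170. RPS19 and RPS7 encode ribosomal proteins, TPT1 encodes a translationally controlled tumour protein, and IL32 encodes a cytokine. TPT1 had 560.9 CPM in PF, with 1333 and 1501 CPM at 2% and 3% PEGDA and 1591 CPM in 2D.

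CXCL2 went the other way. It was 2.55-fold lower in PF+2%PEGDA than in PF (1.48 to 4.71) and 3.32-fold lower in PF+3%PEGDA than in PF (1.79 to 7.03), on 18 and 12 counts in the gels with PEGDA and 50 in PF. With CXCL1, CXCL2 and CXCL3 summed, the log2 ratios were -0.36 for PF+2%PEGDA over PF and -0.31 for PF+3%PEGDA over PF and neither was 2-fold, and how the authors' counting divided reads among these relatives was not tested. CXCL6 had a ratio of 1.60 for PF+2%PEGDA over PF (1.20 to 2.16) and 0.743 for PF+3%PEGDA over PF+2%PEGDA (0.550 to 0.999), neither of them 2-fold.

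**Figure D3:**
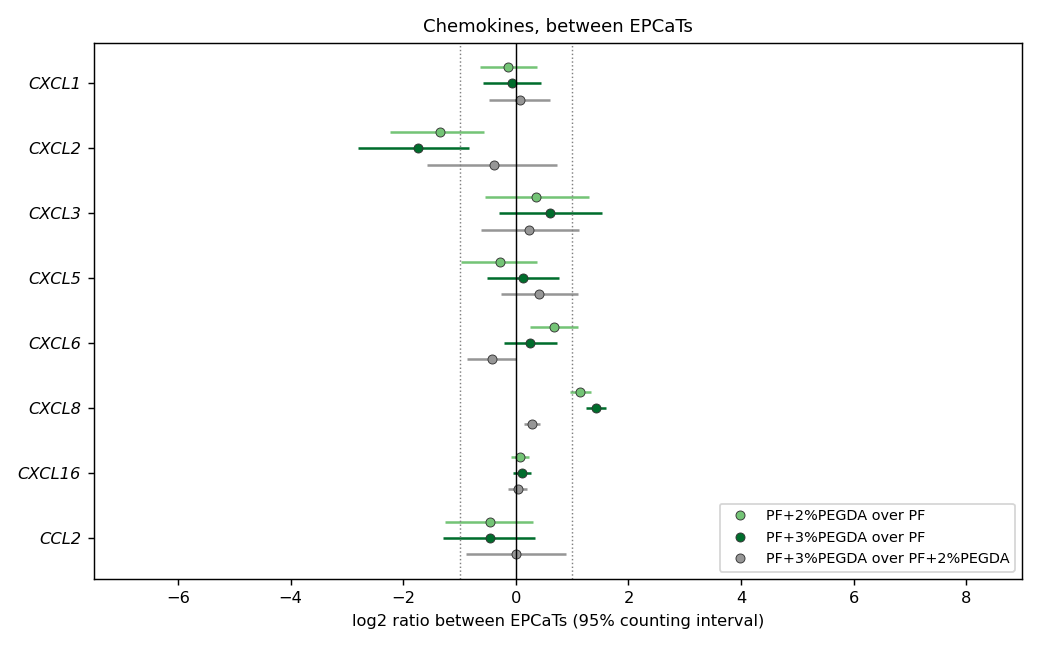
log2 ratio of the 8 tested chemokines between EPCaTs (x axis) for PF+2%PEGDA over PF (light green), PF+3%PEGDA over PF (dark green) and PF+3%PEGDA over PF+2%PEGDA (grey), with exact 95% intervals for counting error and dotted lines at 2-fold. CXCL8 lies right of the 2-fold line and CXCL2 left of it in both comparisons with PF, and the other members lie between the lines.

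The make-up of the ELR class differed between libraries. The 6 genes summed to 648 counts (38.9 CPM) in PF, 1041 (67.1 CPM) in PF+2%PEGDA, 1048 (76.9 CPM) in PF+3%PEGDA and 1661 (113 CPM) in 2D. The sum was 2.91-fold lower in PF than in 2D (2.66 to 3.19), 1.69-fold below 2D in PF+2%PEGDA (1.56 to 1.83) and 1.47-fold below it in PF+3%PEGDA (1.36 to 1.59). CXCL8 made up 58.6% of these counts in PF (95% Clopper-Pearson interval 54.7% to 62.5%), 75.3% in PF+2%PEGDA (72.6% to 77.9%), 79.8% in PF+3%PEGDA (77.2% to 82.2%) and 58.0% in 2D (55.6% to 60.4%). The share of CXCL8 was thus near that of 2D in PF, with overlapping intervals, and higher in the gels with PEGDA.

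CXCL1 made up 11.3%, 5.96% and 5.44% of the ELR counts in the EPCaTs with PF, 2% and 3% PEGDA, against 22.2% in 2D. For each count of CXCL1 there were 5.21, 12.7 and 14.7 counts of CXCL8 in these EPCaTs, against 2.62 in 2D. That quotient was 1.99 times the 2D one in PF (1.50 to 2.66), 4.83 times in PF+2%PEGDA (3.62 to 6.53) and 5.60 times in PF+3%PEGDA (4.16 to 7.66). A quotient of 2 genes within a library does not depend on how the libraries were scaled.

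**Figure D4:**
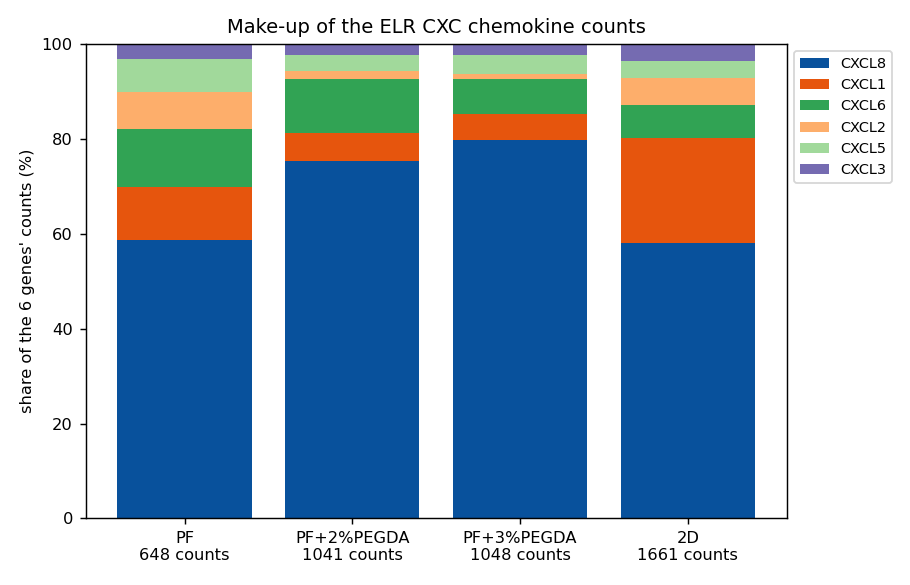
Share of each gene in the summed counts of the 6 ELR chemokines (y axis, %) in the EPCaTs (PF, then 2% and 3% PEGDA) and in 2D (x axis, with the summed counts). CXCL8 takes 75.3% and 79.8% in the gels with PEGDA, and CXCL1 takes 22.2% in 2D.

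Receptors decide which cells can answer a chemokine. The counts of this list and of those that follow stand beside the shares over all tested genes against 2D, which were 16.5%, 12.4% and 12.1% higher and 12.0%, 9.45% and 10.4% lower in the EPCaTs with PF, 2% and 3% PEGDA. Of 23 listed receptors 12 had a row and 7 were tested. Against 2D, 2 were higher in PF, 3 in PF+2%PEGDA and 3 in PF+3%PEGDA, and 1 was lower in each. The receptors of the ELR class and of CCL20, which are CXCR1, CXCR2 and CCR6, were listed but had no row. CXCR6, the receptor of CXCL16, had 2, 2 and 4 counts in the EPCaTs with PF, 2% and 3% PEGDA and 2 in 2D, and CCR2, that of CCL2, had 4, 0 and 3 counts and 2 in 2D.

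CXCR4, the receptor of CXCL12 and known in the spread of prostate cancer to bone, had 177 counts (10.6 CPM) in PF, 435 (28.0 CPM) in PF+2%PEGDA, 475 (34.9 CPM) in PF+3%PEGDA and 56 (3.81 CPM) in 2D. It was 2.77-fold higher in PF (2.05 to 3.83), 7.29-fold in PF+2%PEGDA (5.55 to 9.88) and 9.06-fold in PF+3%PEGDA (6.92 to 12.3) than in 2D. It was also 2.63-fold higher in PF+2%PEGDA than in PF (2.21 to 3.16) and 3.27-fold higher in PF+3%PEGDA than in PF (2.76 to 3.92).

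ACKR3, a scavenging receptor that also binds CXCL12, had 93 counts (5.58 CPM) in PF, 232 (14.9 CPM) in PF+2%PEGDA, 285 (20.9 CPM) in PF+3%PEGDA and 75 (5.11 CPM) in 2D. It was 2.91-fold higher in PF+2%PEGDA (2.25 to 3.85) and 4.07-fold in PF+3%PEGDA (3.16 to 5.35) than in 2D, with no call in PF. ACKR2, which takes up inflammatory CC chemokines such as CCL2, had 7.50, 8.25 and 9.10 CPM in the EPCaTs, against 1.50 CPM in 2D. ACKR4, which takes up other CC chemokines, had 0.54, 0.58 and 0.954 CPM in the EPCaTs, against 10.6 CPM in 2D, and 32.4% of its 50-base stretches occur in another gene. It passed the filter only through 2D.

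Other chemokine ligands did not all follow the members. Of 39 listed, 11 had a row and 8 were tested. Against 2D, 5 were higher and 2 lower in PF, 3 higher and 2 lower in PF+2%PEGDA, and 5 higher and 2 lower in PF+3%PEGDA. Among those higher, CXCL10, CXCL17, CCL25 and CCL26 were under 1 CPM in 2D and passed the filter only through EPCaT libraries. CXCL12, among those lower, passed it only through 2D. The filter thus favoured the direction of these calls, and the counts are a description only. CCL28 passed the filter in every library. CCL28, a mucosal chemokine, had 453 counts (27.2 CPM) in PF, 505 (32.5 CPM) in PF+2%PEGDA, 488 (35.8 CPM) in PF+3%PEGDA and 83 (5.65 CPM) in 2D. It was 4.79-fold higher in PF (3.80 to 6.15), 5.73-fold in PF+2%PEGDA (4.55 to 7.35) and 6.30-fold in PF+3%PEGDA (5.01 to 8.09).

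The ligands called lower in each comparison were CXCL12 and CCL5. CXCL12, a stromal chemokine and the ligand of CXCR4, had 12, 9 and 2 counts in the EPCaTs with PF, 2% and 3% PEGDA, against 67 in 2D. It was 6.11-fold lower in PF (3.40 to 12.9) and 7.50-fold lower in PF+2%PEGDA (3.91 to 18.0), and its ratio in PF+3%PEGDA, on 2 counts, was 0.0322 (0.00382 to 0.121). CCL5, an attractant of T cells and monocytes, had 22, 11 and 6 counts in the EPCaTs, against 59 in 2D, and 13.9% of its 50-base stretches occur in another gene. CXCL17, a mucosal chemokine, had 15, 18 and 21 counts in the EPCaTs, against 0 in 2D, and passed the filter only through EPCaT libraries. Its ratios to a floor of 3 counts set for the 2D library were 4.40, 5.67 and 7.54, which are not interval bounds. CXCL10, an interferon-induced chemokine, had 17, 11 and 45 counts in the EPCaTs, against 5 in 2D.

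**Figure D5:**
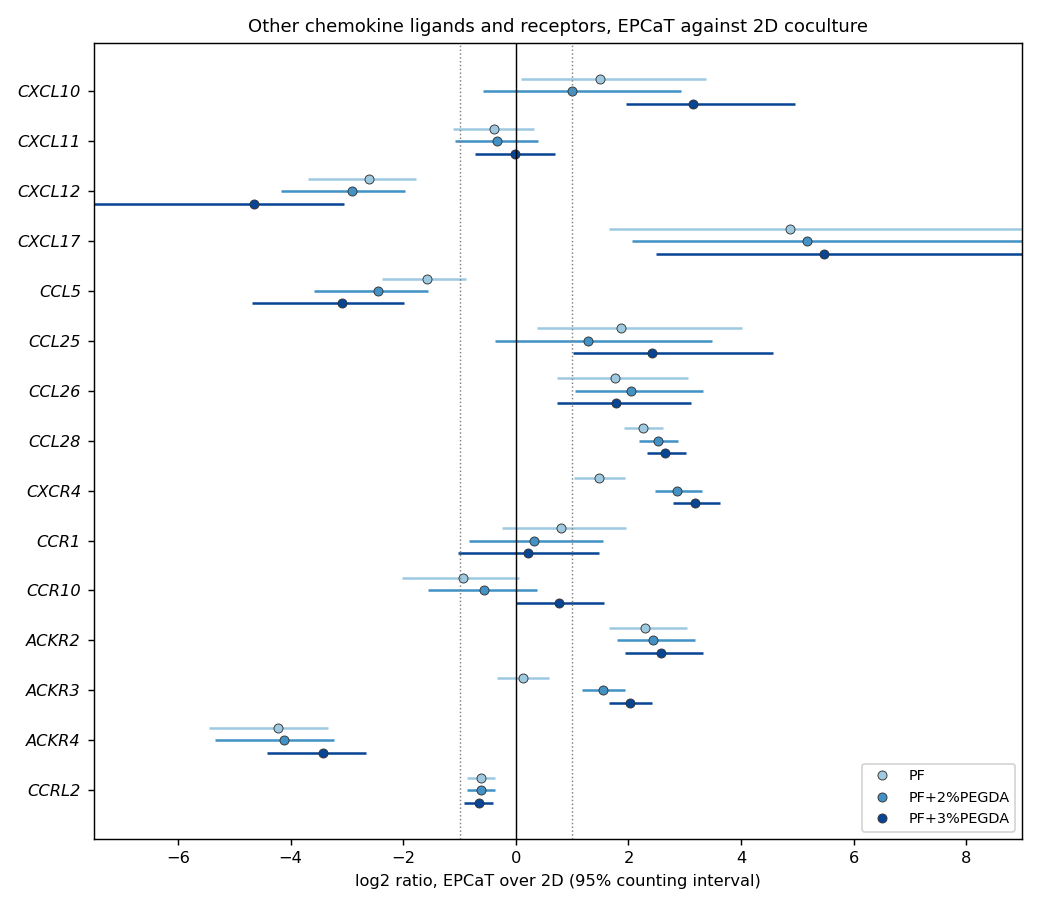
log2 ratio of tested chemokine ligands outside the members (CXCL10 to CCL28) and of tested receptors (CXCR4 to CCRL2) in an EPCaT over 2D (x axis) for PF, then 2% and 3% PEGDA (light to dark blue), with exact 95% intervals for counting error, cut at the frame for CXCL12 and CXCL17, and dotted lines at 2-fold. CXCR4 lies right of 2-fold in each EPCaT and ACKR4 left of it, while ACKR3 lies right of it in the gels with PEGDA alone.

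Cytokines that induce chemokines, and their receptors, were mixed. Of 22 tested genes, 4 were higher and 5 lower in PF than in 2D, 5 higher and 3 lower in PF+2%PEGDA, and 3 higher and 3 lower in PF+3%PEGDA. IL6 had 25 counts (1.50 CPM) in PF, 19 (1.22 CPM) in PF+2%PEGDA, 10 (0.734 CPM) in PF+3%PEGDA and 120 (8.17 CPM) in 2D. It was 5.36-fold lower in PF (3.52 to 8.76), 6.53-fold lower in PF+2%PEGDA (4.10 to 11.5) and 10.7-fold lower in PF+3%PEGDA (5.85 to 23.8). IL1B, a strong inducer of CXCL8, had 150, 204 and 171 counts in the EPCaTs, against 343 counts in 2D, and was called in PF alone. IL33, an alarmin cytokine released by damaged cells, went the other way, with 11.2, 14.8 and 14.8 CPM in the EPCaTs, against 2.11 CPM in 2D. IL1R1, the receptor of IL1B, had 7.74, 5.28 and 6.16 CPM in the EPCaTs, against 5.38 CPM in 2D, with no call.

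NF-kB acts through a set of subunits, kinases and adaptors. Of 17 tested, 2 were higher in PF than in 2D, 1 in PF+2%PEGDA and 1 in PF+3%PEGDA, with 0 lower in each, and the share called higher in PF was near that of all tested genes. NFKB1 had 36.8, 30.9 and 31.3 CPM in the EPCaTs, against 34.1 CPM in 2D, and RELA had 164, 196 and 202 CPM, against 239 CPM in 2D, neither of them called. The gene called higher in each EPCaT was IRAK4, a kinase of the interleukin 1 receptor pathway, with 23.0, 23.3 and 22.5 CPM in the EPCaTs, against 10.1 CPM in 2D.

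Known NF-kB targets were called in both directions. Of 20 tested, 2 were higher and 4 lower in PF than in 2D, 2 higher and 4 lower in PF+2%PEGDA, and 1 higher and 5 lower in PF+3%PEGDA. IER3, an early response gene, had 157, 222 and 206 CPM in the EPCaTs, against 631 CPM in 2D, and LCN2, an iron-binding protein of innate immunity, had 69.1, 71.1 and 60.2 CPM, against 306 CPM in 2D. PTGS2, the cyclooxygenase of inflammation, had 7.98, 10.3 and 16.4 CPM in the EPCaTs, against 3.13 CPM in 2D. NFKBIA, the inhibitor that NF-kB induces in feedback, had 117, 138 and 129 CPM in the EPCaTs, against 64.7 CPM in 2D, and was called in PF+2%PEGDA alone. TNFAIP3, another feedback inhibitor, had 17.9, 19.1 and 18.0 CPM in the EPCaTs, against 21.2 CPM in 2D, with no call.

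NFKBIZ, a nuclear cofactor of NF-kB, had 923 counts (55.4 CPM) in PF, 382 (24.6 CPM) in PF+2%PEGDA, 315 (23.1 CPM) in PF+3%PEGDA and 219 (14.9 CPM) in 2D. It was 2.25-fold lower in PF+2%PEGDA than in PF (2.00 to 2.54) and 2.39-fold lower in PF+3%PEGDA than in PF (2.11 to 2.73). Among 11 tested AP-1 and C/EBP factors, CEBPB, which also binds the CXCL8 promoter, was lower than 2D in each EPCaT. It had 118, 165 and 156 CPM in the EPCaTs, against 573 CPM in 2D. That list had 1 higher and 3 lower in PF than in 2D, 0 higher and 1 lower in PF+2%PEGDA, and 0 higher and 2 lower in PF+3%PEGDA.

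Several proteins control the decay of chemokine mRNA. Of 13 tested, 1 was lower in PF than in 2D, 1 in PF+2%PEGDA and 2 in PF+3%PEGDA, with 0 higher in each, and the shares called lower were near those of all tested genes. ZFP36, which binds AU-rich elements and speeds decay, had 32.0, 29.3 and 27.8 CPM in the EPCaTs, against 20.7 CPM in 2D, with no call. Its relative ZFP36L2 had 72.6, 80.4 and 84.7 CPM in the EPCaTs, against 187 CPM in 2D, and was lower in each. ZC3H12A, an endonuclease that cuts cytokine mRNAs, had 11.9, 5.86 and 5.58 CPM in the EPCaTs, against 8.45 CPM in 2D, and was lower in both gels with PEGDA than in PF.

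Proteases cut or release chemokines. Of 11 tested, 0 were higher and 2 lower in PF than in 2D, 1 higher and 4 lower in PF+2%PEGDA, and 1 higher and 2 lower in PF+3%PEGDA. ADAM10 and ADAM17, which shed CXCL16 from the cell surface, were not called, with 96.3, 88.6 and 98.0 CPM for ADAM10 in the EPCaTs, against 105 CPM in 2D, and 56.8, 54.7 and 60.7 CPM for ADAM17, against 88.8 CPM in 2D. DPP4, which trims the ends of CXCL12 and other chemokines, had 37.5, 37.9 and 35.5 CPM in the EPCaTs, against 88.6 CPM in 2D. MMP3, a matrix protease, had 5.10, 5.67 and 15.3 CPM in the EPCaTs, against 2.79 CPM in 2D.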

How the data were processed

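RNA was sequenced from 3 kinds of EPCaT and 1 2D coculture, with 1 library for each. The authors' deposited table holds expected counts, that is estimated reads for each gene, without scaling between libraries. FastQC, STAR, Partek and hg38 are named in the submitters' processing notes. Their versions, the gene models and how reads were assigned to genes are not given in the sources used here. Per the labels' protocols, libraries were made with a TruSeq RNA v2 kit from column-purified RNA, a kit that does not mark strand, so reads from overlapping genes cannot be told apart.

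Values were rounded to whole numbers, since 18.2% to 19.9% of them in a library were not whole at a tolerance of 0.01. Scaling used TMM factors (trimmed mean of M-values) from edgeR 4.0.16 (R 4.3.3), and CPM use that scale, except in the filter of 1 CPM. Fold changes carry a prior count of 0.5, and ratios are given without it. Their 95% intervals are exact Clopper-Pearson intervals, and those of levels are exact Poisson intervals. Groups of 1 library allow no test between them, and the intervals do not cover variation between cultures. Intervals came from scipy 1.17.1 under Python 3.11.15 (pandas 2.3.3, numpy 2.4.6), and figures from matplotlib 3.10.9. The code for the calls was run on data simulated with counting error alone. That run cannot show how the calls hold under variation between cultures.

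Exon lengths, coordinates and shared 50-base stretches came from GENCODE release 29, where 16591 of 17791 symbols had a value, and promoters from RefSeq (GRCh38.p14). Genes of further lists could be named when called the same way in the 3 EPCaTs against 2D, or in PF+3%PEGDA against PF. They needed at least 5 CPM in 1 library, and a set of fixed names was added. Ranking was by the interval bound nearest to equality, with up to 4 genes per direction and list, or 2 for PF+3%PEGDA against PF. Not every gene that met this rule is named. CCL5, CCL25, CCL26, CXCL17, CD68, POSTN, IFIT1, S100A4, PDGFRA and TWIST1 lie outside that rule and were named after their values had been seen. The members and lists were chosen with earlier results of these data known. As alternatives, scaling used size factors of DESeq2 1.42.0, upper quartile factors or total counts, with further runs with a prior count of 2, no filter, a 4-fold threshold, and CXCL1, CXCL2 and CXCL3 summed. The removal of a trend on exon length and GC content (lowess in statsmodels 0.14.6, fraction 0.3) was added after the data had been seen.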

Additional observations from a re-analysis of the deposited data

How the results depend on the processing

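The counts of called members moved by no more than 1.5 times with DESeq2 size factors, total counts, upper quartile factors and no filter. At a 4-fold threshold 2 members were lower in PF than in 2D, and for PF+2%PEGDA over PF and PF+3%PEGDA over PF 0 were higher and 0 lower. With the trend on exon length and GC content removed, chosen after seeing the data, 0 members were higher for PF+2%PEGDA over PF, since CXCL8 stood at a log2 ratio of 0.87. No member's call turned its direction under any of these settings. Scaling by total counts moved the median log2 ratio of all tested genes to 0.20 in PF and 0.12 in PF+2%PEGDA against 2D, and that of CXCL8 in PF against 2D to -1.34. With CXCL1, CXCL2 and CXCL3 summed, 7 of 18 log2 ratios lay outside the interval of the single gene. No paired analysis was possible because each group has 1 library. Depth limits CCL20, CXCL3 in the EPCaTs, and CXCL2 and CCL2 in the gels with PEGDA, which had 25 counts or fewer.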

Other observations

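Heparan sulfate holds chemokines at the cell surface and in the matrix. Of 16 tested genes for its carrier proteins and its enzymes, 2 were higher and 3 lower in PF than in 2D, 2 higher and 3 lower in PF+2%PEGDA, and 4 higher and 4 lower in PF+3%PEGDA. SULF1, which removes sulfate groups from heparan sulfate, had 6.72, 4.38 and 2.35 CPM in the EPCaTs with PF, 2% and 3% PEGDA, against 149.5 CPM in 2D. SDC1, the carrier syndecan 1, had 232, 240 and 192 CPM in the EPCaTs, against 1867 CPM in 2D. GPC4 and HSPG2, the carriers glypican 4 and perlecan, were higher in the EPCaTs, at 138, 123 and 123 CPM for GPC4, against 41.3 CPM in 2D, and 583, 795 and 769 CPM for HSPG2, against 226 CPM in 2D.

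Interferon-stimulated genes were set beside CXCL10. Of 18 tested, 2 were higher and 3 lower in PF than in 2D, 0 higher and 5 lower in PF+2%PEGDA, and 1 higher and 5 lower in PF+3%PEGDA. ISG15, a ubiquitin-like modifier, had 1224, 957 and 1312 CPM in the EPCaTs, against 3309 CPM in 2D, and IRF7, a regulator of interferon genes, had 99.5, 86.7 and 98.6 CPM, against 419 CPM in 2D. CXCL10 was 3.17-fold higher in PF+3%PEGDA than in PF (1.82 to 6.03) and 4.49-fold higher than in PF+2%PEGDA (2.37 to 9.99). Of the 18 genes, 0 were called higher in either of those comparisons, where 3.63% and 1.85% of all tested genes were. Their median log2 ratio was -0.20 for PF+3%PEGDA over PF, and 0.46 for PF+3%PEGDA over PF+2%PEGDA, beside 0.00 over all tested genes in both. All 18 had more CPM in PF+3%PEGDA than in PF+2%PEGDA, within 2-fold, such as IFIT1 with 247 CPM, against 168.5 CPM.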
